A study of Mus musculus with 29 samples.

Results

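Interleukins are secreted proteins by which leucocytes and tissue cells signal to each other, and each acts through a receptor built of a small number of membrane chains, several of which are shared between ligands. In allergic airway disease they direct the recruitment and activation of T cells, B cells and granulocytes. DNA methylation (DNAm) at CpG sites is in general low at CpG-rich gene starts and high in gene bodies, and partly methylated regions often mark sites that differ between the cell types of a tissue. The loci described here are the autosomal genes of the mouse named as an interleukin or interleukin receptor (symbols starting with Il and a number), without the Il4, Il5, Il13, Il5ra, Il4ra, Il33, Il1rl1, Il1rap, Il7r, Il25 and Il17rb loci. They held 384 of the 260686 windows in the deposited table and belonged to 62 genes. Each window spans 100 cytosines in CpG context, which is about 50 CpG dinucleotides, and its value is the mean percentage of methylated calls (%DNAm). The median interleukin window was 4390.5 bp long, against 4772 bp over all windows.

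The DNA came from the lungs of 13-week-old BALB/c offspring labelled female, from tissue that holds epithelium, endothelium, stroma and leucocytes together. Dams were given intranasal saline (Sham) or fine particulate matter (PM2.5), and their offspring were sensitised to ovalbumin (OVA) and challenged with aerosolised OVA, or were given nebulised saline. The 4 groups are called Sham and PM without OVA and Sham-OVA and PM-OVA with it, and hold 7 mice each except PM-OVA, which holds 8. Each library is 1 mouse, and which mice shared a dam was not used here, so p values describe the spread between mice. The methods describe the sensitisation for the offspring in general, without a separate statement for the saline controls.

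The files hold percentages without read counts, so the depth behind a value is unknown. All 384 windows had a value in all 29 libraries. The Sham replicate 1 library stands apart, although all mice are labelled female. In it 1224 of the 1230 Y chromosome windows held a value, whereas 29 to 46 did in the other libraries. Of its X chromosome windows 5.95% had a %DNAm under 10%, against 0.268% to 0.488% in the other libraries. The sex of this mouse was not tested. Without this library, 10 interleukin DMRs (differentially methylated regions, defined below) were called in each OVA comparison, as with it. Among defining markers of lung cells, the lowest window had a Sham mean of 44.9% at Sftpc and 55.5% at Sftpb (surfactant proteins of alveolar type II cells), 0.633% at Epcam (an epithelial adhesion molecule), 65.1% at Ptprc (CD45, on all leucocytes) and 54.0% at Cdh5 (an endothelial cadherin).

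The sequences below are the loci on which the results turn, in GRCm38. Capitals mark CpG dinucleotides. The first 3 come from the largest falls and the largest rise after OVA outside gene starts. Each is the 250 bases richest in CpG within an exonic or intronic window, outside annotated untranslated regions. They are the intronic Il17ra stretch at chr6:120466715-120466964 with 8 CpGs, the Il12a stretch at chr3:68691139-68691388 with 17 CpGs and no annotated exon, and the Il12rb1 stretch at chr8:70820405-70820654 with 18 CpGs, of which 140 bases are exonic. All are written on the plus strand. The last 2 are the 250 bases upstream of the start of Il21r (chr7:125603179-125603428, plus strand, 4 CpGs) and of Il1r1 (chr1:40224830-40225079, plus strand, 3 CpGs), whose gene-start windows moved in opposite directions. They come from RefSeq on the GRCm38.p6 assembly.
Il17ra intron: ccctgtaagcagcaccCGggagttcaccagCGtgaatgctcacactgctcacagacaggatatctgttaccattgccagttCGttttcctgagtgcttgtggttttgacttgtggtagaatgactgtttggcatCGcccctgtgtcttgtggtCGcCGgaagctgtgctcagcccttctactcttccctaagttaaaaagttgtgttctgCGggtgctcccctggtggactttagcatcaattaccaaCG
Il12a gene body: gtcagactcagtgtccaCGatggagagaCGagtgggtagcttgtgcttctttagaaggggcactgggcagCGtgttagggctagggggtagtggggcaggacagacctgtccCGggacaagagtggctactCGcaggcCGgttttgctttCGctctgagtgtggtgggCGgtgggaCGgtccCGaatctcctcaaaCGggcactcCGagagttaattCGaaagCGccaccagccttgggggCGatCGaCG
Il12rb1 gene body: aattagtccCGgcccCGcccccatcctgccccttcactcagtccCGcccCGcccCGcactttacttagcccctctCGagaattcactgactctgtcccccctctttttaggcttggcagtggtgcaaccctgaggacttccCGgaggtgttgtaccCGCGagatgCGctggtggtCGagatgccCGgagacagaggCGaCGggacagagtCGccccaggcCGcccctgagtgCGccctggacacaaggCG
Il21r promoter: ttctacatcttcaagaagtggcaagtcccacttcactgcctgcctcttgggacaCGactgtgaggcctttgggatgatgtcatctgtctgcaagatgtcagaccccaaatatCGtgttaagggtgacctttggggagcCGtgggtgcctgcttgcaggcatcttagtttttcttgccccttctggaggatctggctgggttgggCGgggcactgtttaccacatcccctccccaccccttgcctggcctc
Il1r1 promoter: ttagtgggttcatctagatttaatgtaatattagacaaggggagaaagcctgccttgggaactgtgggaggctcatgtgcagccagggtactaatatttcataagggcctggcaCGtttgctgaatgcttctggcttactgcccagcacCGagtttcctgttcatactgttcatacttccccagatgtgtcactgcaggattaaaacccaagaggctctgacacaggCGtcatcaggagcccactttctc

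RefSeq promoters were matched for 46 of the 62 genes. Over these, the 250 upstream bases held a median of 3 CpGs, against 6 over 27025 genes. Motifs were searched by their letters on both strands. The STAT motif TTCNNNGAA, bound by the factors that many interleukin receptors activate, was found in 10.9% of the interleukin promoters and 7.18% of all promoters. The AP-1 motif TGANTCA was found in 17.4% and 6.87%, and the RUNX motif TGTGGT, which the Il21r promoter holds and the Il1r1 promoter does not, in 21.7% and 14.2%. The letters of the motifs do not show that a factor was bound.

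In the Sham group, interleukin windows were mostly methylated, with a median Sham mean of 74.0%, against 76.9% over all windows tested. Windows at 80% or more made up 28.1% of the interleukin windows and 38.5% of all windows, and windows between 60% and 80% made up 49.5% and 42.6%. Between 40% and 60% the shares were 10.2% and 7.03%, and between 20% and 40% they were 7.55% and 3.45%. Unmethylated windows under 20% were fewer, at 4.69% against 8.49%.

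The window that holds the annotated start of the gene could be found for 56 of the 62 genes, and its median Sham mean was 65.4%. Only 3 genes had a start below 10%. These were Il6st at 0.162% (gp130, the signalling chain shared by the IL-6 family), Il17ra at 0.324% (the chain shared by IL-17A and IL-17F) and Il17rd at 8.94%. Receptors also filled the next ranks, with Il10ra at 22.6%, Il12rb2 at 24.3%, Il6ra at 26.0%, Il27ra at 27.4% and Il1rl2, the IL-36 receptor, at 28.1%. In contrast, 24 starts were at 70% or more. The highest were Il22ra2 at 85.7% (a soluble IL-22 antagonist), Il17a at 85.1%, Il22 at 84.7% and Il20 at 83.1%. The SD within the Sham group was 1.39 points at Il22ra2 and 1.45 at Il22, so the neighbours at the top of the order did not differ beyond their spread.

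**Figure D1:**
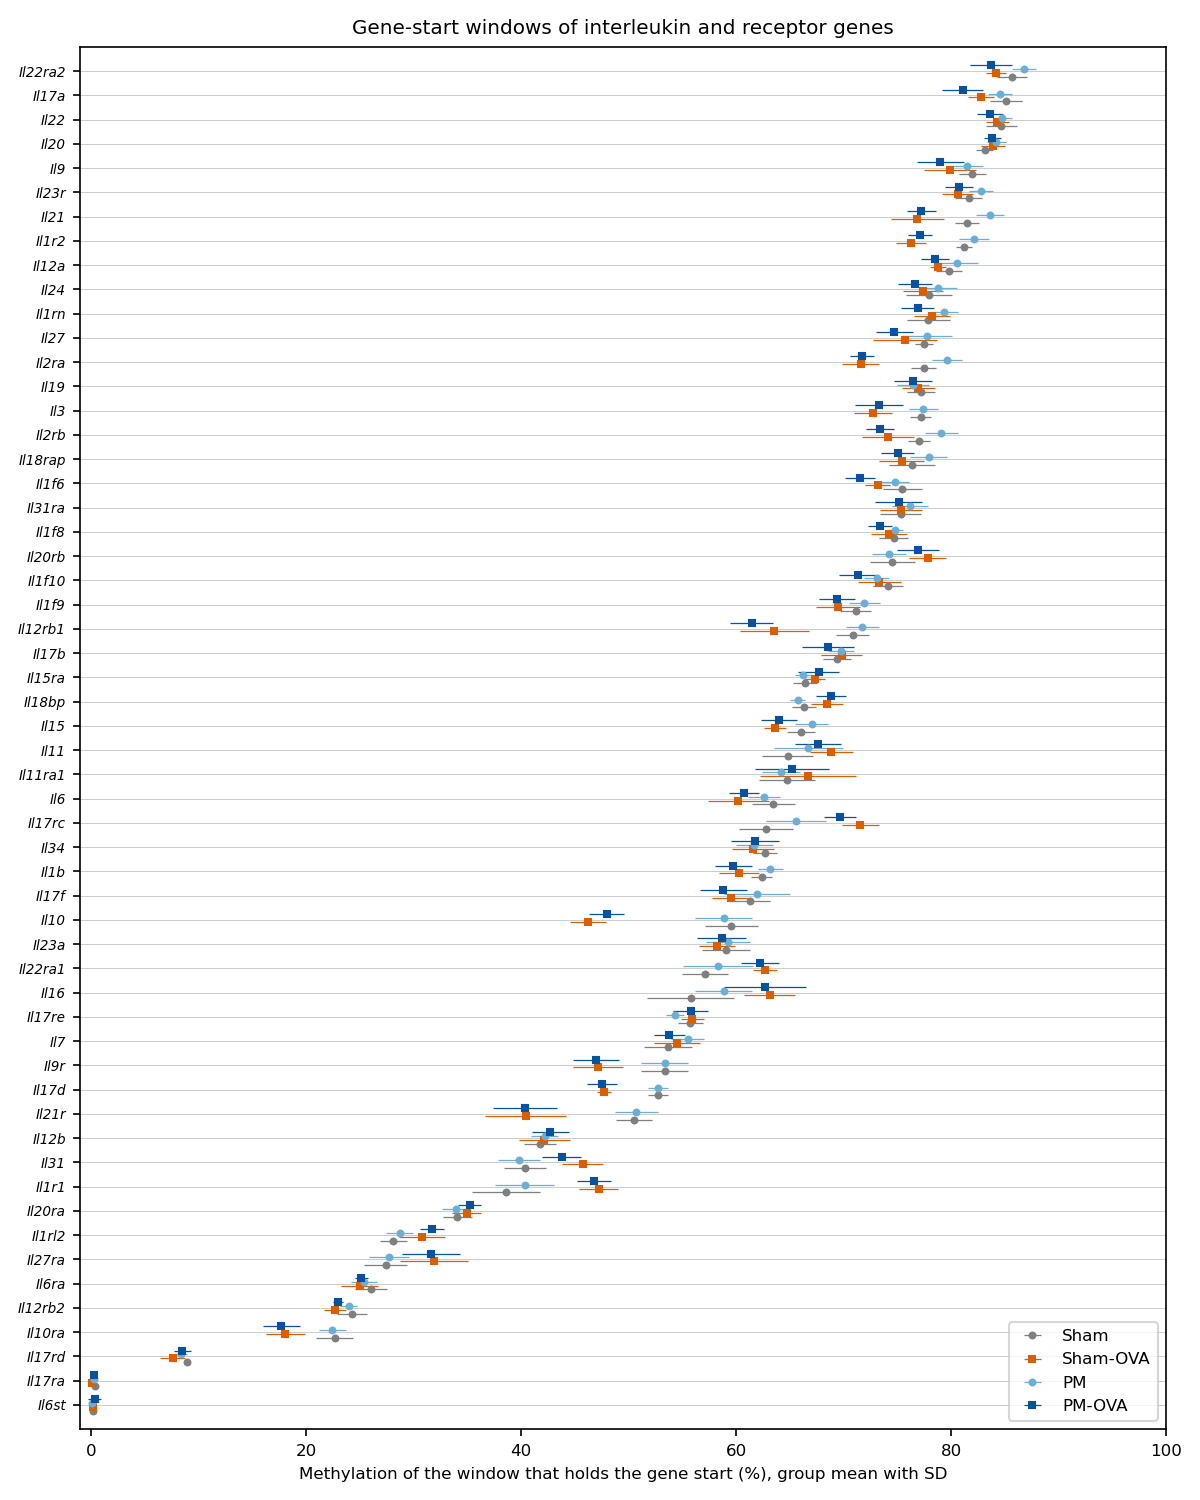
Group mean %DNAm with SD (horizontal axis, percent) of the window that holds the gene start of 56 interleukin and receptor genes, ordered by the Sham mean (n = 7, 7, 7 and 8 mice). Il6st and Il17ra sit near 0 in all groups, Il10 and Il21r fall after OVA, and Il1r1 and Il17rc rise.

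The lowest interleukin windows were not all at the start of the gene they are listed under. The lowest of all, at 0.0805%, lies in the long Il11ra1 record over the neighbouring gene Rpp25l, and 18 of the 25 Il11ra1 windows overlap another gene. The Il17rc window at 0.297% overlaps Creld1. The Il15ra window centred 627 bp into the gene was at 0.136%, below the 66.4% of the window holding the start itself. Il6ra showed the same arrangement, with 0.468% in a 382 bp window just inside the gene and 26.0% in the window that reaches upstream, both of which overlap Gm42809. In all, 59 windows of 25 genes overlapped another gene, so a value there belongs to both.

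The first question was how the OVA treatment altered these loci in the offspring of Sham dams. DNAm fell most at Il17ra, Il12a, Il10, Il4i1, Il6ra, Il16 and Il21r, and rose most inside Il12rb1 and Il22ra1. A DMR was called where the adjusted p was under 0.05 (limma's moderated test over 259167 windows, Benjamini-Hochberg) and the group means differed by at least 10 points. There were 10 interleukin DMRs, 8 lower and 2 higher after OVA, which is 2.6% of the interleukin windows, where the rule called 0.775% of all windows. Lower calls made up 2.08% of interleukin windows against 0.296% of all windows, and higher calls 0.521% against 0.479%. By adjusted p alone 166 windows changed, 63 higher and 103 lower, or 43.2% against 35.6% of all windows. Higher calls made up 13.3% of all windows and lower calls 22.3%. The interleukin windows and all windows also differ in baseline DNAm, since 6 of these 10 DMRs lay among the 39 windows with a Sham mean of 40% to 60%, and how far that bears on the shares was not tested.

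The second question was the same comparison in the offspring of PM2.5 dams, which shares no mouse with the first. There were again 10 DMRs, 9 lower and 1 higher, or 2.6% of interleukin windows and 0.584% of all windows. Lower calls made up 2.34% against 0.321%, and higher calls 0.26% against 0.263%. By adjusted p alone 191 windows changed, 41 higher and 150 lower, or 49.7% against 44.1% of all windows. Higher calls made up 9.26% of all windows and lower calls 34.8%. This split rests on the scaling. The median difference over all windows was -1.03 points in PM offspring and -0.414 in Sham offspring, and with each library centred on its own median shift 177 interleukin windows passed in PM offspring, 77 higher and 100 lower, and 165 in Sham offspring, 75 higher and 90 lower. Over all windows the centred libraries gave 21.8% higher and 20.4% lower in PM offspring, and 18.5% higher and 18.4% lower in Sham offspring.

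Both comparisons marked nearly the same DMRs. The 11 windows called in either belonged to 9 genes, and 9 were called in both, in the same direction. By adjusted p alone 132 windows were called in both, 94 lower and 38 higher, which is 79.5% of those called in Sham offspring and 69.1% of those called in PM offspring, where the shares over all windows were 76.7% and 62.0%. The differences had the same sign in 81.0% of interleukin windows, against 81.8% of all windows. Their correlation over the 384 windows was r = 0.935, a description, since windows of 1 gene are not independent. In bulk lung, an altered mix of cells and an altered level within a cell type cannot be told apart.

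**Figure D2:**
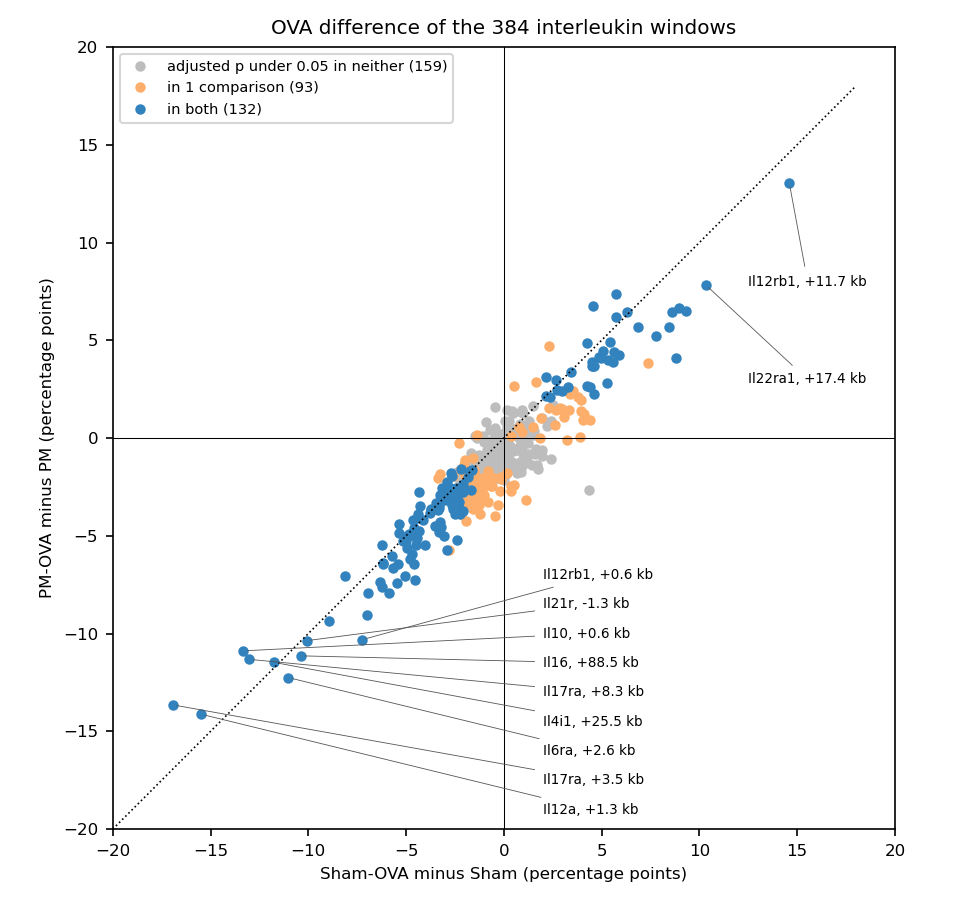
Difference of group means after OVA, in percentage points, for each of the 384 interleukin windows in Sham (horizontal axis) and PM offspring (vertical axis), coloured by adjusted p, with the 11 DMR windows named by gene and distance of their centre from the gene start. Points follow the dotted line of equality, and 132 windows passed in both comparisons.

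Among the receptors the IL-17 chain gene Il17ra held the largest fall. In the intronic window at chr6:120464421-120469012, which contains the printed stretch, %DNAm ranged in the Sham group from 70.8 to 75.8 with a median of 73.5. After OVA it ranged from 52.2 to 59.8 with a median of 56.0. In PM offspring it ranged from 67.4 to 73.4 (median 70.5) without and from 52.8 to 61.7 (median 56.0) with OVA. Every challenged mouse was thus below every unchallenged mouse. The means were 72.8% ± 1.89 and 55.8% ± 2.63 (SD, n = 7 and 7) in Sham offspring, a difference of -16.9 points (limma adjusted p = 7.99e-10). They were 70.5% ± 1.97 and 56.9% ± 3.16 (n = 7 and 8) in PM offspring, a difference of -13.6 points (limma adjusted p = 5.57e-09).

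The fall was local within Il17ra. The next window, chr6:120469013-120474053, fell from 61.2% to 48.2% (adjusted p = 3.36e-09) and from 60.2% to 48.9% (adjusted p = 8.09e-09), again without overlap between mice. The 2 windows before them, over the start and 726 bp into the gene, stayed between 0.0642% and 1.25% in the 4 group means and passed in neither comparison. The window centred 13004 bp into the gene was at 83.0% and 83.5% in Sham and Sham-OVA mice and did not pass either. Downstream of it, the only call was in the last window in PM offspring, which fell by 3.19 points and overlaps Tmem121b. With centred libraries that call was lost (adjusted p = 0.0857) and in PM offspring the window at 13004 bp passed as a rise of 2.25 points. The start window passed there too, at 0.632 points. Its values are near 0, and centring moves all windows of a library by the same amount, so this value is not read as a rise.

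Il6ra, the chain that binds IL-6, also had its largest fall next to an unmethylated window, but its falls were spread further along the gene, with 6 of its 14 windows lower in Sham offspring and 8 in PM offspring by adjusted p (4 and 6 with centred libraries). The intronic window at chr3:89908436-89912808, next to the unmethylated 382 bp, ranged from 48.1% to 53.4% in Sham mice and from 37.7% to 45.1% in Sham-OVA mice, and from 49.9% to 56.5% in PM mice and from 38.0% to 43.5% in PM-OVA mice. The groups did not overlap. The means fell from 51.6% to 40.6% (adjusted p = 1.44e-07) and from 53.4% to 41.2% (adjusted p = 1.17e-08). A window centred 12433 bp into the gene moved the other way, from 67.1% to 70.6% in Sham offspring (adjusted p = 0.0192), while its rise by 2.39 points in PM offspring had an adjusted p of 0.0827.

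Il21r encodes the receptor chain specific for IL-21, a cytokine of follicular helper T cells. Its start window, chr7:125600288-125603947, includes the printed promoter. It ranged from 49.0% to 53.3% in Sham mice and from 35.2% to 44.7% in Sham-OVA mice, and from 47.9% to 53.3% and 35.2% to 43.2% in PM and PM-OVA mice, with no overlap. The means differed by -10.1 points (50.5% to 40.4%, adjusted p = 5.22e-06) and -10.4 points (50.7% to 40.3%, adjusted p = 1.57e-06). Along the gene the difference in Sham offspring shrank from window to window near the start, with -8.93 points at 4030 bp, -4.48 at 9951 bp and -2.19 at 14461 bp, the last of these with an adjusted p of 0.0893. Windows further in were called too. Of the 7 Il21r windows 5 fell by adjusted p in Sham offspring (4 with centred libraries), and the median difference was -3.27 points.

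Il12rb1, the chain shared by the IL-12 and IL-23 receptors, changed in both directions. The CpG-rich exonic window at chr8:70819359-70820841 held the largest rise. Its values ran from 42.0% to 49.9% (median 43.8) in Sham and from 52.1% to 68.7% (median 57.5) in Sham-OVA mice, and from 41.5% to 54.3% (median 44.6) in PM and from 54.7% to 64.8% (median 58.6) in PM-OVA mice. All challenged mice were above the unchallenged mice of the same maternal group, by a small margin in PM offspring. The rise was 14.6 points in Sham offspring (44.5% ± 2.90 to 59.1% ± 5.54, adjusted p = 1.78e-05) and 13.0 points in PM offspring (46.3% ± 4.89 to 59.3% ± 4.26, adjusted p = 3.53e-05). Neither p was under the study's threshold of 1e-06.

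At the start of the same gene, chr8:70806988-70811051, DNAm fell from 70.8% to 63.6% in Sham offspring (adjusted p = 1.56e-05) and from 71.8% to 61.4% in PM offspring (adjusted p = 4.50e-08). Only the second difference exceeded 10 points, but the difference between the 2 falls, -3.06 points, had an unadjusted p of 0.064 and an adjusted p of 0.69. The window upstream of the rising one also rose, by 5.42 and 4.90 points from a Sham mean of 26.2%. Other receptors of the IL-12 family had no DMR.

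**Figure D3:**
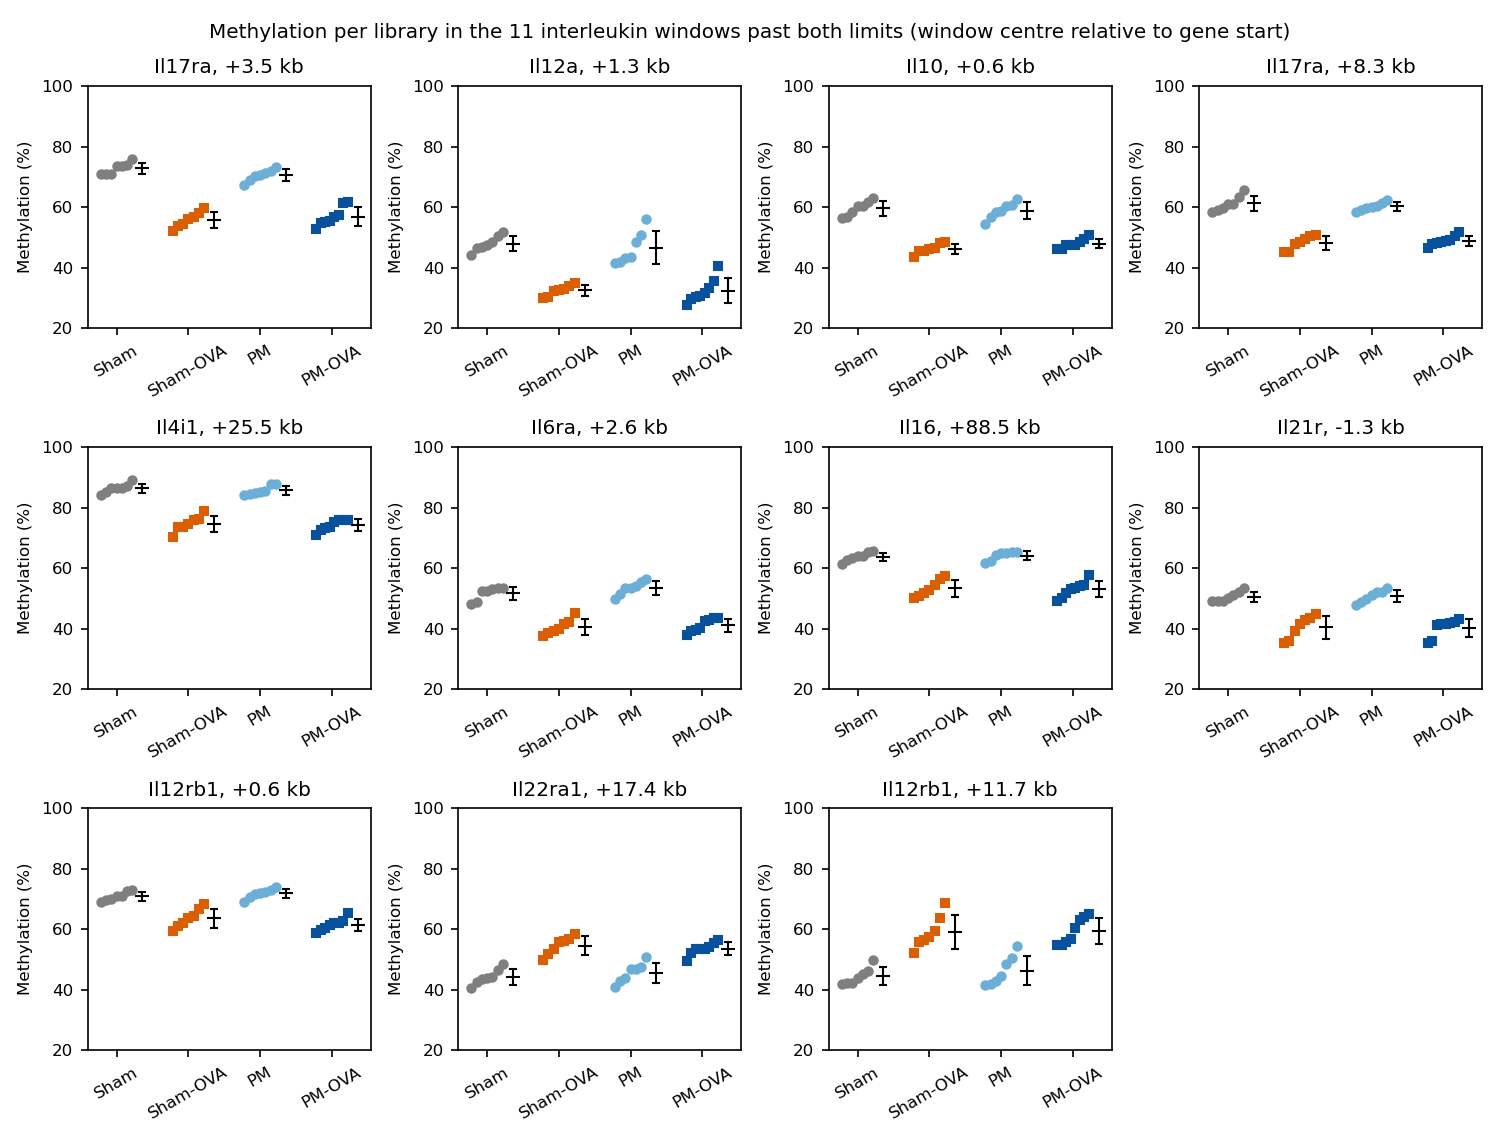
%DNAm of each mouse (points; vertical axis, percent, from 20 to 100) in the 11 interleukin windows called as DMRs in either OVA comparison, by group, with the group mean and SD in black. 9 windows fall and 2 rise after OVA, and challenged and unchallenged mice of the same maternal group overlap only at Il22ra1 in PM offspring.

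Il22ra1 encodes the receptor chain that lets epithelial cells respond to IL-22. Its exonic window at chr4:135744186-135747049 rose from 44.2% ± 2.59 to 54.5% ± 3.08 in Sham offspring (10.3 points, adjusted p = 4.00e-06). In PM offspring it rose from 45.6% ± 3.32 to 53.5% ± 2.12, which is 7.84 points (adjusted p = 6.49e-05) and under the limit for a DMR, with the highest PM mouse at 50.7% and the lowest PM-OVA mouse at 49.5%. The difference between the rises had an adjusted p of 0.796. The start window of the gene rose as well, by 5.59 points (adjusted p = 0.000431) and 3.88 points (adjusted p = 0.00622).

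Of the cytokine genes, Il12a, Il10 and Il16 held DMRs, and Il16 is described further on. Il12a encodes the p35 subunit of IL-12 and IL-35. Its window at chr3:68690829-68693051 ranged from 44.3% to 51.7% in Sham and from 30.1% to 35.1% in Sham-OVA mice, and from 41.6% to 56.0% in PM and 27.7% to 40.4% in PM-OVA mice. The PM groups were the more spread, with SDs of 5.47 and 4.03 points against 2.49 and 1.79, yet even there the highest challenged mouse stayed below the lowest unchallenged one. The differences were -15.5 points (47.9% to 32.5%, adjusted p = 5.73e-07) and -14.1 points (46.5% to 32.4%, adjusted p = 7.32e-07). Around it, the upstream window that holds the gene start was at 79.8% in Sham mice and differed by -1.02 points in Sham offspring (adjusted p = 0.291) and -2.06 points in PM offspring (adjusted p = 0.0188, but 0.2 with centred libraries), and the 2 windows downstream changed by -4.66 and -2.57 points in Sham offspring.

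Il10 encodes an anti-inflammatory cytokine made by regulatory T cells, macrophages and B cells. Its start window, chr1:131018763-131022216, ranged from 56.4% to 62.9% in Sham and from 43.5% to 48.3% in Sham-OVA mice, and from 54.5% to 62.5% in PM and 46.0% to 50.9% in PM-OVA mice. There was no overlap. The mean changed by -13.3 points (59.6% ± 2.46 to 46.2% ± 1.69, adjusted p = 4.65e-09) and -10.9 points (58.9% ± 2.67 to 48.0% ± 1.64, adjusted p = 3.04e-08). In the other Il10 window the differences were -2.43 and -2.56 points.

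Of the remaining DMRs, the Il16 window (a T cell chemoattractant) at chr7:83653862-83660581 near the end of the gene fell from 63.7% to 53.3% (adjusted p = 1.81e-07) and from 64.1% to 53.0% (adjusted p = 2.32e-08). It overlaps the non-coding gene 2310044K18Rik. The last Il4i1 window, chr7:44840585-44843186, fell from 86.4% to 74.7% (adjusted p = 3.35e-09) and from 85.7% to 74.2% (adjusted p = 1.71e-09). Il4i1 is an amino acid oxidase and no interleukin, and only 225 of the 2602 bp of the window lie in its record, the window also overlapping Tbc1d17. In neither of these windows did the values of challenged and unchallenged mice overlap.

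**Figure D4:**
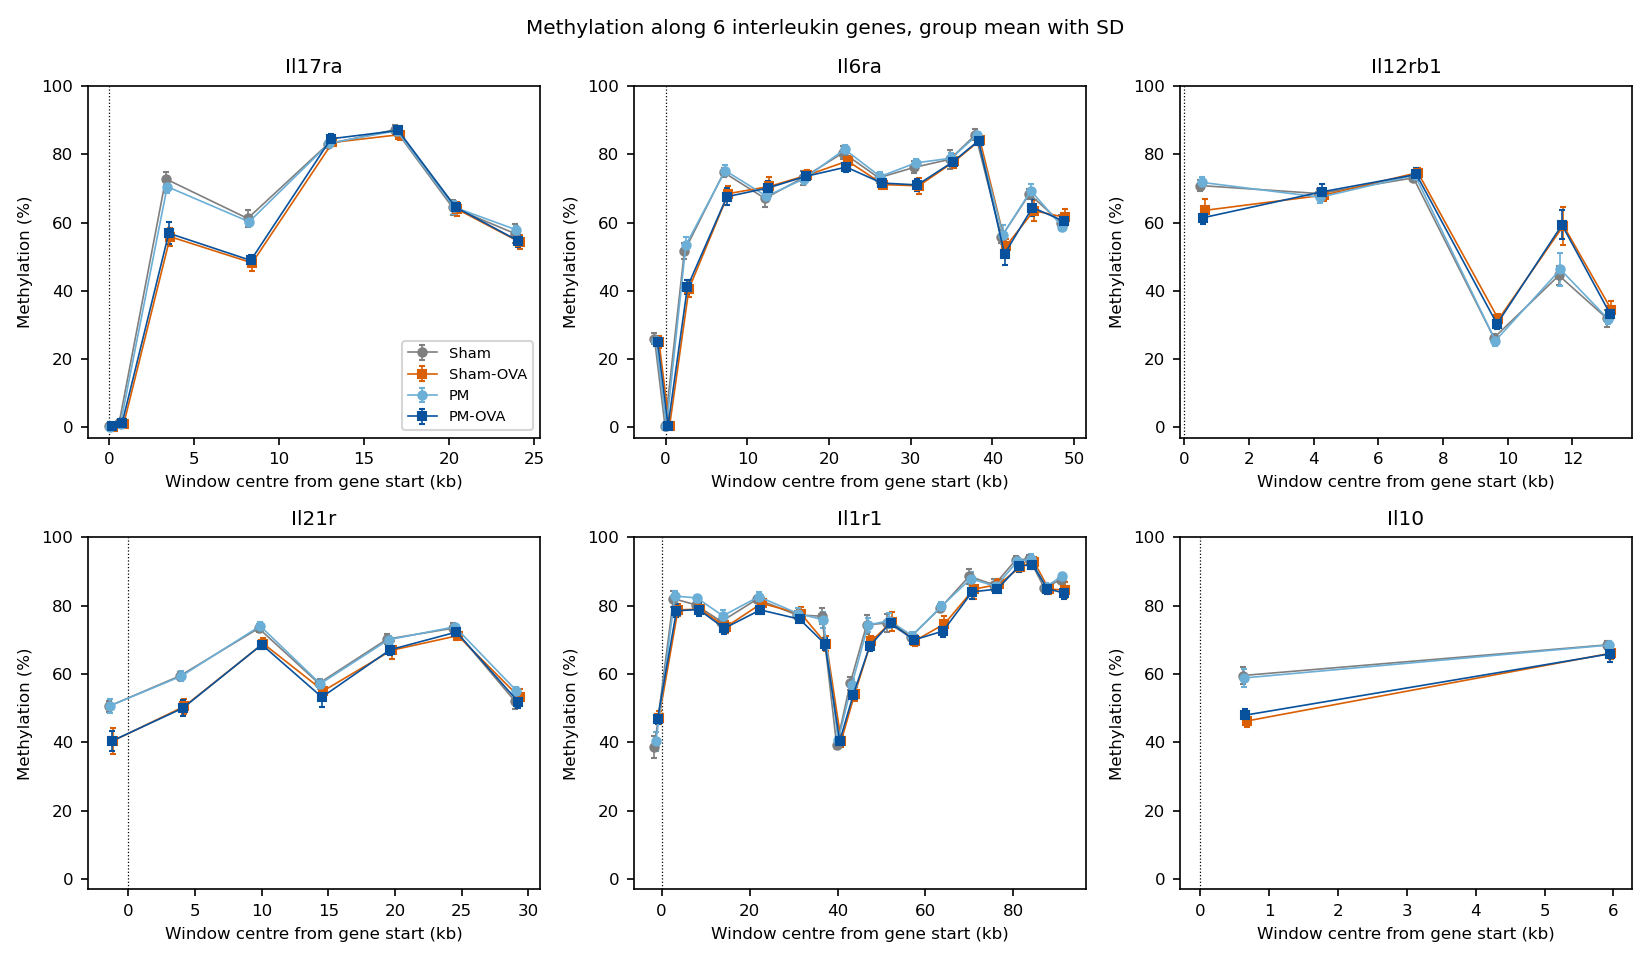
Group mean %DNAm with SD (vertical axis) of each window along 6 genes against the distance of the window centre from the gene start in kb (dotted line at 0). In Il17ra, Il6ra, Il21r and Il10 the largest falls lie within 10 kb of the start, while Il12rb1 and Il1r1 have windows that rise and windows that fall.

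Below the 10-point limit, gene starts moved in both directions. Of the 56 start windows, 10 rose and 17 fell in Sham offspring and 8 rose and 24 fell in PM offspring by adjusted p. Rises thus made up 17.9% and 14.3% of the start windows, against 13.3% and 9.26% of all windows, and falls 30.4% and 42.9%, against 22.3% and 34.8%. This split too rests on the scaling, since with centred libraries 11 rose and 14 fell, and 14 rose and 16 fell. In Sham offspring the largest rise of a start was at Il17rc, the partner chain of Il17ra, from 62.8% to 71.6% (8.80 points, adjusted p = 1.09e-06), and in PM offspring this window rose by 4.09 points (adjusted p = 0.00348). The start of Il1r1, the signalling receptor of IL-1, ranged from 35.3% to 43.8% in Sham and from 44.2% to 49.0% in Sham-OVA mice, and rose by 8.62 points (adjusted p = 6.44e-06) and, as the largest rise of a start in PM offspring, 6.44 points (adjusted p = 0.000123). The Il16 start rose by 7.36 points (adjusted p = 0.00154) in Sham offspring, and its 3.82 points in PM offspring had an adjusted p of 0.0589.

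Several receptor starts fell. Il2ra, the high-affinity IL-2 receptor chain CD25, fell from 77.4% to 71.6% (adjusted p = 1.41e-06) and from 79.6% to 71.7% (adjusted p = 3.99e-09). Il9r, which binds IL-9, changed by -6.20 and -6.41 points, and Il2rb, shared by IL-2 and IL-15, by -2.91 and -5.74 points. The start of Il10ra, already low, fell from 22.6% to 18.1% in Sham offspring and changed by -4.78 points in PM offspring. The decoy receptor Il1r2 changed by -4.96 and -4.99 points. All of these had an adjusted p under 0.05 in both comparisons.

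Other windows named for their size lay inside genes. Il20rb, a receptor chain for IL-19, IL-20 and IL-24, rose from 68.7% to 78.0% in Sham offspring and by 6.49 points in PM offspring in 1 exonic window, and 6 of its 8 windows rose in Sham offspring. In Il17rd, a transmembrane inhibitor of fibroblast growth factor signalling, the window centred 35492 bp into the gene rose by 8.97 and 6.66 points. An intronic window of Il34, a ligand of the CSF1 receptor, rose by 7.79 and 5.21 points, and the second window of Il6st rose from 9.54% to 15.3% and from 9.58% to 15.8%. Exonic windows of Il11ra1 and Il11, the receptor and its ligand, rose by 5.75 and 7.36 points and by 4.54 and 6.73 points. The Il1r1 window centred 36965 bp into the gene changed by -8.13 and -7.07 points. All of these passed in both comparisons.

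Within some genes the windows diverged. In Sham offspring 18 genes had windows called in both directions, 18 genes had only falls and 10 only rises. In PM offspring these counts were 16, 29 and 8. Genes with both directions were thus 18 and 16 of the 62, where 18.3% and 17.3% of the 38141 genes in the table had both. Of those 38141 genes, 28.7% and 44.9% had only falls, and 13.5% and 7.8% had only rises. The counts of interleukin genes with only falls were thus near the shares of all genes. None of these shares was matched for the number of windows in a gene. The counts rest on the scaling, since with centred libraries they were 17, 17 and 14 in Sham offspring and 23, 17 and 10 in PM offspring. Il1r1 is an example, where the start rose while 8 of the other windows fell in Sham offspring and 11 in PM offspring. Il2rb was another, with 2 falls at and next to the start and 2 rises further in, in both comparisons. Il17b, Il1f10, Il1f8, Il20, Il22, Il23a, Il24 and Il3ra, 8 genes in all, had no called window in either comparison, and 10 genes had none with centred libraries, when Il20 and Il3ra gained calls.

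Over all windows, lower calls by adjusted p made up 22.3% in Sham and 34.8% in PM offspring, and higher calls 13.3% and 9.26%, and the counts by family are read against these shares. By family, the falls were most frequent at the cytokines of the common gamma chain, where 11 of 21 windows fell in Sham offspring and 15 in PM offspring and none rose (with centred libraries 10 and 11 fell and, in PM offspring, 1 rose). Il15, which sustains NK and memory T cells, contributed 6 and 8 of these, and Il21 contributed 2 and 3. The 10 windows of the IL-12 family ligands held 4 and 6 falls and no rise (4 and 4 falls with centred libraries). IL-1 family receptors and inhibitors held 20 and 31 falls against 6 and 5 rises among 53 windows (20 and 23 against 7 and 6 with centred libraries). Of these falls Il1r1 held 8 and 11, Il1rl2 held 6 in each, and Il18r1, the IL-18 receptor, held 3 and 5 (3 and 3 with centred libraries). IL-10 family receptors held more rises than falls, 10 against 4 in Sham and 8 against 6 in PM offspring, as they did with centred libraries. Il20rb alone held 6 and 4 of these rises. Over the ligands of the IL-1, common gamma chain, IL-6, IL-12, IL-10 and IL-17 families (without Il3, Il16 and Il34), 26 of 89 windows fell and 9 rose in Sham offspring, and 42 fell and 4 rose in PM offspring, so that falls made up 29.2% and 47.2%. With centred libraries 24 fell and 11 rose, and 24 fell and 9 rose. Over the receptors of these families, inhibitors included and without Il3ra, 61 of 252 fell and 47 rose in Sham offspring and 85 fell and 36 rose in PM offspring. These falls made up 24.2% and 33.7%, near the shares of all windows, and with centred libraries 54 fell and 55 rose, and 59 fell and 62 rose.

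**Figure D5:**
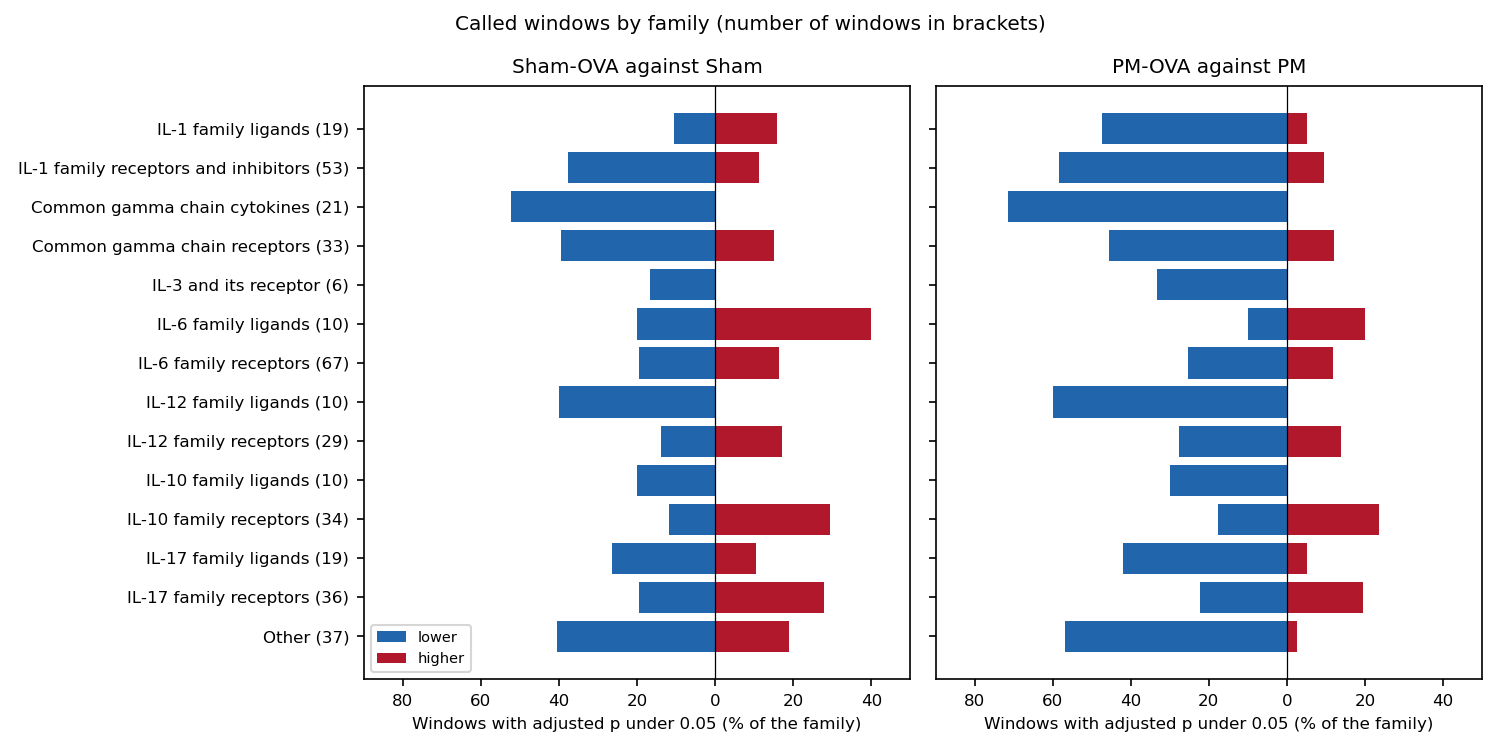
Share of the windows of each family with an adjusted p under 0.05 (horizontal axis, percent of the windows of that family), lower to the left and higher to the right, in Sham and PM offspring; the bars are counts per family and carry no test. Common gamma chain cytokines and IL-12 family ligands show falls and no rises in both panels, although with centred libraries 1 common gamma chain cytokine window rose in PM offspring.

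None of the 18 interleukin windows with a Sham mean under 20% and none of the 29 between 20% and 40% was a DMR in either comparison. By adjusted p 6 of the 18 rose and 1 fell in Sham offspring, and 3 rose and none fell in PM offspring. Among all windows, of any band, 13.3% rose and 22.3% fell in Sham offspring, and 9.26% rose and 34.8% fell in PM offspring. Over all windows the DMRs made up 0.395% and 0.273% of those under 20% and 3.74% and 2.81% of those between 20% and 40%. In the band from 40% to 60% they made up 15.4% and 12.8% of the interleukin windows and 4.63% and 2.79% of all windows. Among the 108 windows at 80% or more, 32 fell and 9 rose in Sham offspring and 50 fell and 5 rose in PM offspring (28 and 11, and 28 and 14, with centred libraries). The falls made up 29.6% and 46.3%, near the 31.0% and 45.5% of all windows in that band. The 56 start windows held 2 DMRs in Sham offspring and 3 in PM offspring. DMRs made up 2.6% of the interleukin windows in each comparison and 0.775% and 0.584% of all windows. The other interleukin DMRs lay in windows over introns and exons.

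Genes that act with interleukins but have no interleukin name were described for comparison, with 18 of 19 listed genes holding 162 windows. By adjusted p 32 of these rose and 52 fell in Sham offspring, and 23 rose and 59 fell in PM offspring. Among all windows 13.3% rose and 22.3% fell, and 9.26% rose and 34.8% fell. In Sham offspring 3 were DMRs higher and 2 lower, and in PM offspring 2 higher and 2 lower, where DMRs made up 0.775% and 0.584% of all windows. The largest was a rise at Ebi3, whose product pairs with the Il12a subunit in IL-35 and is also a subunit of IL-27, from 37.5% to 59.7% and from 37.8% to 52.1%. The other rises were at Csf2ra, by 17.3 points in Sham and 13.0 in PM offspring, and at Traf3ip2, by 11.6 and, under the DMR limit, 9.77 points. Both falls were in Csf2rb, the receptor chain shared by IL-3, IL-5 and GM-CSF, with differences of -12.6 and -10.5 points in Sham offspring.

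Windows of marker genes of several cell types changed after OVA too, and are read against the 22.3% and 34.8% of all windows that fell and the 13.3% and 9.26% that rose in Sham and PM offspring by adjusted p. DMRs made up 0.775% and 0.584% of all windows, and lower DMRs 0.296% and 0.321%. Of 42 windows in 9 of 10 listed lymphocyte genes, 6 were DMRs, all lower, in each comparison, and by adjusted p 18 fell and 8 rose in Sham offspring and 21 fell and 8 rose in PM offspring. Among the DMRs was a Ptprc window that fell from 69.3% to 50.2%. The mean over the 42 windows was 66.8% to 68.4% in Sham and 63.5% to 65.3% in Sham-OVA mice, and 67.6% to 68.8% in PM and 63.9% to 65.6% in PM-OVA mice. Over 10 windows of the 4 eosinophil markers it was 74.6% to 76.1% against 70.4% to 73.0%, and 74.9% to 76.6% against 70.2% to 72.0% in PM offspring. Of these windows 6 fell in Sham and 7 in PM offspring by adjusted p, and none rose. An Epx window was a DMR in Sham offspring (-10.3 points) and changed by -9.22 points in PM offspring. The 29 macrophage windows held no DMR, but 10 fell and 3 rose in Sham offspring and 15 fell and 2 rose in PM offspring by adjusted p. Their mean was 77.3% to 78.9% in Sham and 76.2% to 78.2% in Sham-OVA mice, and in PM offspring the lowest unchallenged mouse was at 77.6% and the highest challenged one at 77.4%, so that these groups did not overlap. The 36 mesenchymal windows held no DMR either, with 11 falls and 7 rises in Sham and 14 falls and 4 rises in PM offspring, and a mean of 60.9% to 62.1% against 60.4% to 61.7% in Sham offspring and medians of 61.8% against 60.6%, with overlap, in PM offspring. The mean over 74 endothelial windows was higher after OVA, with 66.5% to 69.4% and 69.2% to 71.7% in Sham offspring and 66.3% to 70.2% and 69.1% to 71.4% in PM offspring. By adjusted p 34 of these windows rose and 5 fell in Sham offspring, and 32 rose and 9 fell in PM offspring. They held 2 higher DMRs and 1 lower in Sham offspring and 1 of each in PM offspring. These were a Pecam1 (CD31) window that changed by -18.0 and -15.9 points, another Pecam1 window that rose from 49.3% to 61.7% and from 51.9% to 63.5%, and a Cdh5 window that rose by 11.1 and 9.59 points. The 34 epithelial windows held no DMR, with a mean of 59.1% to 61.1% in Sham and 59.9% to 61.1% in Sham-OVA mice and overlapping ranges in PM offspring (highest means 61.2% and 60.9%). By adjusted p 5 epithelial windows rose and 4 fell in Sham offspring, and 1 rose and 6 fell in PM offspring. The part of the cell mix in the changes at interleukin genes was not tested.

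The third question was whether maternal PM2.5 altered these loci. Between Sham and PM offspring without OVA, between Sham-OVA and PM-OVA offspring, and in the interaction, which subtracts the change after OVA seen in Sham offspring from that seen in PM offspring, no interleukin window and none of the 259167 windows was called by limma (0% for both rules). An unadjusted p under 0.05 was reached by 22, 23 and 29 interleukin windows and by 15003, 15450 and 19166 of all windows. The smallest adjusted p among interleukin windows was 0.805, 0.805 and 0.554.

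The windows with the smallest p were Il2ra and Il34. The Il2ra start was at 77.4% ± 1.16 in Sham and 79.6% ± 1.40 in PM mice, a difference of 2.18 points (unadjusted p = 0.00335, adjusted p = 0.805). The last Il34 window was at 79.7% ± 1.68 in Sham-OVA and 77.2% ± 0.936 in PM-OVA mice (unadjusted p = 0.00168, adjusted p = 0.805), and its change after OVA was -0.463 points for Sham and -3.98 for PM dams (interaction unadjusted p = 0.00215, adjusted p = 0.554). At Il17rc, the rises at the start differed by -4.70 points, PM offspring minus Sham offspring (unadjusted p = 0.00546, adjusted p = 0.571).

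For the intronic Il17ra window, the interaction was 3.29 points, or 0.22 with an SE of 0.11 on the scale of the test, the log2 ratio of methylated to unmethylated percentages (unadjusted p = 0.0621). For the rising Il12rb1 window it was -1.56 points, or -0.09 with an SE of 0.18. At the 384 windows the difference between maternal groups never exceeded 4.78 points without OVA and 3.69 points with OVA. The former, at Il20ra, came with the largest SD within groups of any interleukin window, 5.78 points. That intronic window ranged from 58.2% to 72.1% in Sham and from 64.5% to 78.1% in PM mice, and from 61.4% to 78.9% and 55.2% to 76.6% after OVA, so that all 4 groups overlapped. It also held the largest interaction, -7.03 points (unadjusted p = 0.0868, adjusted p = 0.711). The Il17d window centred 16946 bp into the gene, with an SD of 3.50 points, ranged from 70.9% to 86.5% in Sham mice.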

How the data were processed

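Whole-genome enzymatic methyl-seq was analysed for 29 lung libraries. The authors extracted DNA with the AllPrep kit and made libraries with NEBNext Enzymatic Methyl-seq, in which methylated cytosines are protected and others deaminated, with unmethylated lambda DNA added. Reads were trimmed with Trim Galore, mapped to GRCm38 and called with DRAGEN. The authors deposited percent methylation per window of 100 CpG cytosines, kept where a window overlapped a gene. Because a percentage hides its coverage, no count model, counting interval or detection floor could be given, and errors are the spread between mice. No normalization of the deposited percentages was stated, while the study's own test took library size as a covariate.

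Groups were taken from the labels. Windows with at least 3 values in each of the 4 groups (259167) were tested with limma 3.58.1 in R 4.3.3 on log2((percent + 1)/(100 - percent + 1)), 4 group means, 2-sided, with Benjamini-Hochberg adjustment over all of them. The study's own test needs read counts, so limma was used in its place. DMRs passed 0.05 after adjustment and moved by 10 points or more.

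Gene starts, exons and introns are those of GENCODE on GRCm38, and a window was placed by its overlap. Windows keep the gene name of the table. Named windows were all DMRs, the 8 largest rises and falls of each OVA comparison (1 per gene), the smallest p of the other comparisons, gene starts, the 5 lowest and the 5 most variable. The gene set, the lists of signalling partners and cell type markers and these rules were chosen with earlier results of these data known. Groups share replicate numbers, which the labels do not tie to a litter or batch. Replicate numbers are those of the titles. Alternatives were other scales and offsets, library centring, 2-group fits, a replicate block, other thresholds and leaving out each library.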

Additional observations from a re-analysis of the deposited data

Results flagged for a closer look

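In 4 of the 92 groups of values examined (23 named windows in 4 groups), 1 mouse lay far from the others, where chance gives about 1 in 20. At the second Il6st window, Sham-OVA replicate 4 was highest at 19.4% and the next mouse was at 15.4%. At the Il2ra start, PM replicate 4 was lowest at 76.7% and the next was at 79.6%. At the exonic Il20rb window, the same mouse was highest of the PM group at 72.2%, with the next at 68.6%. At the exonic Il11ra1 window, PM-OVA replicate 1 was highest at 51.6% and the next was at 49.5%. Leaving out any of these mice changed no call of an OVA difference at these 4 windows.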

How the results depend on the processing

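Without 1 mouse, the interleukin DMRs numbered 7 to 10 in Sham offspring (7 without Sham-OVA replicate 6) and 8 to 10 in PM offspring (8 without PM replicate 4), and windows with an adjusted p under 0.05 numbered 150 to 170 and 176 to 195. The other 3 comparisons stayed at 0 under every alternative run, by leave-one-out too. With a minimum difference of 5 points there were 48 DMRs in Sham offspring and 51 in PM offspring. With the study's p threshold of 1e-06, 9 and 18 windows passed by adjusted p alone and 7 and 8 DMRs were left, all lower, since the rises at Il12rb1 and Il22ra1 and the fall at Il21r did not pass. Centring each library left 8 and 7 DMRs. With the replicate number as a block, 10 and 10 DMRs and 165 and 182 windows by adjusted p were called, and same-numbered mice of different groups deviated together with r from -0.0409 to 0.104 (median 0.0141), so the numbers were not taken to pair mice. As a hint from the data, 9 of the 28 mice with a same-numbered mouse in another group correlated best with one of that number. The library names carry other numbers, and 2 PM-OVA libraries carry Rel, whose meaning is not given. In fits chosen after seeing the data, a block by those names gave 10 and 10 DMRs and 167 and 189 windows (r from -0.0283 to 0.104), and without both Rel libraries there were 10 and 9 DMRs and 164 and 181 windows. Over the other 37 refits DMRs were lost by size, and never by p, at Il22ra1, Il16, Il21r, Il10 and the Il12rb1 start, where the difference was near 10 points. At Il21r, for example, it ranged from -10.8 to -9.22 points in Sham offspring over the mice left out. Over the 23 named windows, 1715 of 1748 alternative results kept their direction and side of the threshold, none reversed, 28 missed the threshold of 1e-06, and the other 5 were the Il16 start in PM offspring passing 0.05. The paper reports high genome coverage per mouse, but the depth behind each value is unknown. Counting error could therefore not be separated from the spread between mice.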
